A study of Homo sapiens with 8 samples.

Results

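The array carried 8407 unnamed intergenic loci, measured by 11839 of its 50599 non-control probes (23.4%) and making up 8407 of its 36337 distinct gene names. They were chosen by name alone, as probes whose gene name begins with XLOC_ or whose transcript identifier begins with TCONS_. These names come from a catalogue of large intergenic noncoding transcripts assembled from RNA-seq reads at the Broad Institute. All but 3 of the loci had an XLOC_ name, and the others were HOTAIR, HOTTIP and GNASAS, entered through a TCONS_ identifier. Among the XLOC_ names, 1472 belonged to a separately numbered list with the prefix XLOC_l2_. Most loci (6420) had 1 probe, 1987 had at least 2, and none had more than 13. The current RefSeq gene table gave a symbol to 58 of the loci, while the rest stay unnamed. Whether each locus is intergenic in hg19, the build of the array's coordinates, was not checked, because no hg19 annotation was used here.

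Large intergenic noncoding RNAs are transcribed by RNA polymerase II from DNA between protein-coding genes, and are often spliced and polyadenylated like mRNAs. As a class they are known for low levels, for expression in few tissues, and for lying near developmental regulators. UHRF1 binds hemimethylated DNA after replication and recruits DNMT1, which copies the methylation to the new strand, and it also reads histone H3. Trichostatin A (TSA) blocks histone deacetylases (HDACs), so that acetyl groups build up on histones.

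RNA came from DLD1 cells, an established colorectal cancer line described by the study as having the CpG island methylator phenotype. Cells received a control siRNA (siCONT) or 1 of 2 siRNAs against UHRF1 (siUHRF1-1 and siUHRF1-2) for 48 h, followed by 24 h with 300 nM TSA or with ethanol, its solvent (mock). This gave 4 groups of 2 arrays, namely siCONT with mock, siUHRF1 with mock, siCONT with TSA, and siUHRF1 with TSA. The 2 arrays of a siUHRF1 group carried the 2 different siRNAs, and every culture, controls included, was transfected with Lipofectamine RNAiMAX.

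The probes printed on the array for a few loci are shown, each 60 bases long and written 5′ to 3′ with its hg19 position. They were picked because the main results turn on them: the loci with the largest rise, a locus higher only with siUHRF1 arrays, loci that rose only with both treatments, members of runs of neighbouring loci, loci that fell, and the brightest loci. Capitals mark AATAAA, the canonical polyadenylation signal.
XLOC_l2_010338 (chr3:127002627-127002686, minus strand): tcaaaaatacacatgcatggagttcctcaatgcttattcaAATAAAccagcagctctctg
XLOC_004834 (chr5:56593591-56595059, minus strand): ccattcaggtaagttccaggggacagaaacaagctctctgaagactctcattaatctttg
XLOC_004924 (chr5:90598843-90598902, minus strand): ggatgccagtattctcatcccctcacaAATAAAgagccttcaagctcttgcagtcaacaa
XLOC_l2_015849 (chrX:152661129-152661188, minus strand): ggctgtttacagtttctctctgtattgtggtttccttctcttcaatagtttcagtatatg
XLOC_003917 (chr4:28363943-28364002, minus strand): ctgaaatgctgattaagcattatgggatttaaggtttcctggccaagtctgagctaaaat
XLOC_001869 (chr2:220603646-220607703, plus strand): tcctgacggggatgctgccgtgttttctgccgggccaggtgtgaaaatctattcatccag
XLOC_003912 (chr4:26861437-26861496, minus strand): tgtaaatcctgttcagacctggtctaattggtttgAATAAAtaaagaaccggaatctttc
XLOC_l2_009332 (chr22:25916634-25916693, plus strand): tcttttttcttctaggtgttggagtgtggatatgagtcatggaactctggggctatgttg
XLOC_009797 (chr12:69187680-69187739, plus strand): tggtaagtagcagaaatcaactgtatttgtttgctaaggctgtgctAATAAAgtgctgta
XLOC_l2_005557 (chr16:76268918-76268977, minus strand): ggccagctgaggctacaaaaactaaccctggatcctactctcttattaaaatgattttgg
XLOC_l2_002910 (chr12:17144740-17144925, plus strand): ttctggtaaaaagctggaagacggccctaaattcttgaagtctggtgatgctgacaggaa
The signal AATAAA stood in 934 of the 11839 XLOC probes (7.89%), against 7.42% of the named-gene probes. The letters TTTATT, its reverse complement, stood in 3.8% of the XLOC probes. A match is a description of the probe's letters only.

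The level given throughout is the log2 of a probe's processed intensity minus the 75th percentile of its array, so that 0 is an intensity above that of 75% of the probes. Detection in a group means a signal well above background on both of its arrays. The 2 siCONT arrays of each treatment differed by little more than repeated spots of the same probe on one array do, 1.09 and 1.2 times the spot noise, against 13.4 and 10.5 times for the siUHRF1 pairs. They were therefore counted as 1 sample in means, which carry no SD for siCONT. The test across probes kept all 8 arrays as separate samples, and its results with the siCONT arrays averaged to 1 sample are given beside it. UHRF1 itself fell from 1.99 in siCONT with mock to 0.16 ± 0.26 (SD, n = 2 siRNAs) in siUHRF1 with mock. It fell from 1.03 to −1.85 ± 0.41 (SD, n = 2 siRNAs) under TSA. All 10 colon epithelium markers examined were detected in all groups. None of the 6 fibroblast and 4 endothelium markers was detected in every group, and COL1A2, COL3A1, PECAM1 and KDR were above background on no array. The summed signal of these lists (log2) nonetheless went from −2.65 in siCONT with mock to 0.32 in siUHRF1 with TSA for fibroblasts, and from −2.43 to 0.74 for endothelium, while that of colon epithelium stayed between 10.6 and 10.95. The part of this in the results on the loci was not tested. Of 5 leukocyte markers on the array CD79A, CD14 and CD68 were detected in all groups, and PTPRC was above background on no array. As these are bulk RNA samples, fewer cells with a transcript and less of it per cell cannot be told apart.

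Most XLOC loci gave no signal in DLD1 cells. Of the 8407 loci, 1016 (12.1%) were detected in siCONT with mock, 1079 (12.8%) in siUHRF1 with mock, 1219 (14.5%) in siCONT with TSA and 1274 (15.2%) in siUHRF1 with TSA. Named genes rose in the same order, from 61.8% to 63.6%, 64.9% and 66.5%. On single arrays 11.7% to 11.9% of the XLOC probes were above background in siCONT with mock, 12.8% to 12.9% in siUHRF1 with mock, 13.9% to 15.1% in siCONT with TSA and 14.7% to 15.6% in siUHRF1 with TSA. The groups with and without TSA did not overlap in this share, while the 2 TSA groups did. Over all probes the mock arrays (43.3% to 45.5%) and the TSA arrays (46.0% to 48.0%) did not overlap either. There the 2 TSA groups were apart as well, at 46.0% to 46.9% and 47.1% to 48.0%. Counted by the less strict scanner flag for a signal above background, 2599, 2640, 2910 and 2919 loci were detected in the same order of groups. A detected XLOC probe was dim. The median level of the detected XLOC probes lay between −1.79 and −1.42 in the 4 groups, against 0.69 to 1.06 for named genes, and the lowest level above background on an array lay between −3.79 and −3.37.

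**Figure D1:**
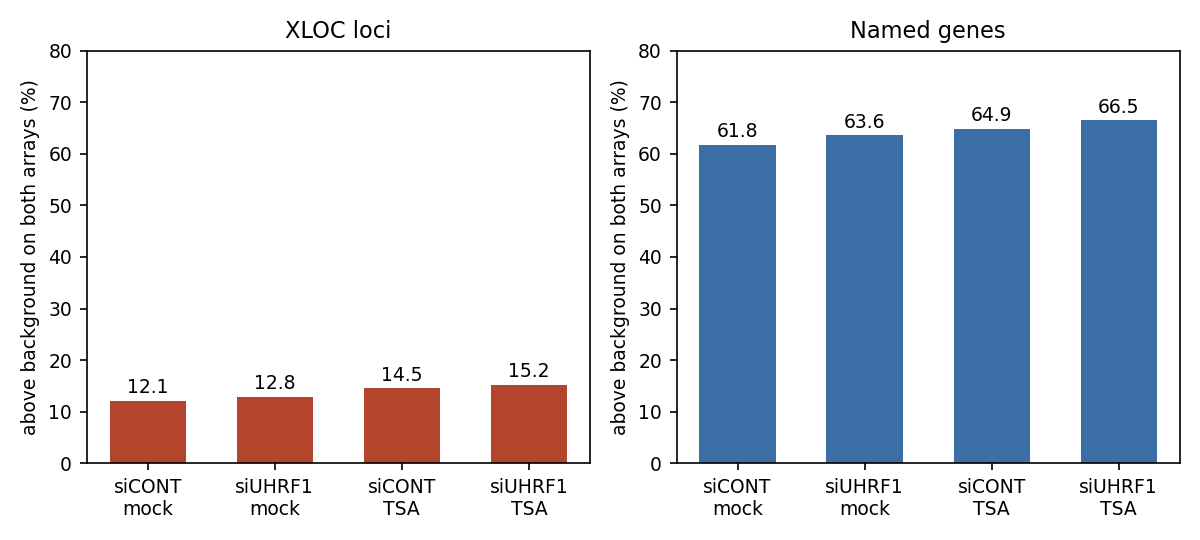
Share of XLOC loci (left) and of named genes (right) with at least 1 probe well above background on both arrays of a group, in percent of all loci or genes on the array. The XLOC share goes from 12.1% in siCONT with mock to 15.2% in siUHRF1 with TSA, and the named-gene share from 61.8% to 66.5%.

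The same loci made up most of each group's detected set. In all, 1027 probes of 866 loci were detected in all 4 groups and 10023 probes in none. Next came 190 probes detected in both TSA groups only, 138 in siUHRF1 with TSA only, 90 in every group but siCONT with mock, 82 in siCONT with TSA only, 60 in siUHRF1 with mock only and 28 in siCONT with mock only. These were 1.6%, 1.17%, 0.76%, 0.693%, 0.507% and 0.237% of the XLOC probes. The same patterns covered larger shares of the named-gene probes, 1.94%, 1.79%, 1.29%, 0.77%, 0.697% and 0.347%. Asking in addition that a probe be above background on no array of any other group left 73 probes for siUHRF1 with TSA, 29 for siCONT with TSA, 23 for siUHRF1 with mock and 4 for siCONT with mock. For named-gene probes these counts were 286, 48, 67 and 13. As shares they were 0.617%, 0.245%, 0.194% and 0.0338% of the XLOC probes. Of the named-gene probes they were 0.954%, 0.16%, 0.223% and 0.0434%. The brightest XLOC probe seen only in siUHRF1 with TSA belonged to XLOC_008079 on chromosome X, whose arrays stood at −1.03 and −0.45 there and at −3.62 or below elsewhere.

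The brightest loci were a small and particular set. The 10 brightest XLOC probes in siCONT with mock had levels from 8.21 to 9.85, far above the median of the detected ones. All 10 carried an XLOC_l2_ name, as did 36 of the brightest 50 and 58 of the brightest 100, although such names cover 2634 of the 11839 probes. XLOC_l2_005557 on chromosome 16 was the brightest, with 9.85 and 9.84 in siCONT with mock, 9.46 and 9.74 in siUHRF1 with mock, 9.49 and 9.50 in siCONT with TSA, and 9.64 and 9.55 in siUHRF1 with TSA. Its arrays spanned less than a 2-fold range, and none of the 10 was called changed in any comparison.

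Some of these probes resemble coding sequence, as read from the array's own annotation and from the probe letters after the values had been seen. The array describes the probe of XLOC_l2_009184, at 8.57 and 8.58 in siCONT with mock, by its likeness to 60S ribosomal protein L23, and that of XLOC_l2_011566, at 9.06 and 8.91, by its likeness to an acidic ribosomal phosphoprotein. These were 2 of the 14 XLOC probes whose description names a ribosomal protein. The probe of XLOC_l2_002910, printed above, shares 31 bases with a probe of EEF1A1, the translation elongation factor. Over the whole class 40 XLOC probes shared a stretch of at least 25 bases with a named-gene probe, and 21 of them were detected in a group. For such loci the signal of the locus and that of the gene cannot be told apart.

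Detection differed with the kind of name. Of the XLOC_l2_ probes, 17.0% were detected in siCONT with mock and 20.2% in siUHRF1 with TSA, against 8.30% and 11.1% of the other XLOC probes. Probes with a TCONS_ identifier were detected least often (8.91% in siCONT with mock), followed by those with an Ensembl identifier (9.92%) and those known from cDNA or other sequences (15.5%). The 1822 probes that span an intron were detected about as often (9.44%) as those that do not (10.3%).

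UHRF1 depletion plus TSA was then compared with siCONT and mock, to ask which of the loci respond to the combination. Of 1655 XLOC probes tested, 440 (26.6%), of 364 loci, were called higher and 107 (6.47%), of 98 loci, were called lower. A call needed a change of 2-fold or more and a p under 0.05 after Benjamini-Hochberg adjustment. Over all probes on the array 14.5% were called higher and 11.1% lower, and over named-gene probes 12.7% and 12.2%. XLOC calls were thus 80.4% higher, and named-gene calls 51.0% higher. With the siCONT arrays averaged to 1 sample, 326 XLOC probes were called higher and 51 lower. Over all probes 3662 were then called, instead of 6077. The share of calls that were higher depended on how arrays were scaled. It was 71.1% after quantile normalization, 60.8% after scaling to the array median, which moved the median change over all tested probes from −0.14 to −0.54, and 88.8% after scaling to the detected probes only.

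The count of higher calls also depended on the filter, because a locus silent in siCONT with mock could enter only by being higher. Of the 440 higher probes, 285 were above background on no siCONT mock array, 28 on 1 and 127 on both. Among the 1027 XLOC probes above background on all 8 arrays, 120 (11.7%) were higher and 60 (5.84%) lower. The named-gene probes of that kind were higher in 7.15% and lower in 12.4%. Their median changes were −0.14 for XLOC probes and −0.22 for named genes.

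Brightness went with the calls in both classes. Below a mean level of −2, 36.5% of 865 XLOC probes were higher, and so were 35.2% of 3243 named-gene probes. Between −2 and 0 the shares were 20.5% and 13.6%, between 0 and 2 they were 11.6% and 7.68%, and above 2 they were 0.893% (1 of 112 probes) and 4.19%. The share of XLOC probes called lower stayed between 6.08% and 8.93% in the 4 classes, under that of named genes (9.19% to 13.4%) in each.

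**Figure D2:**
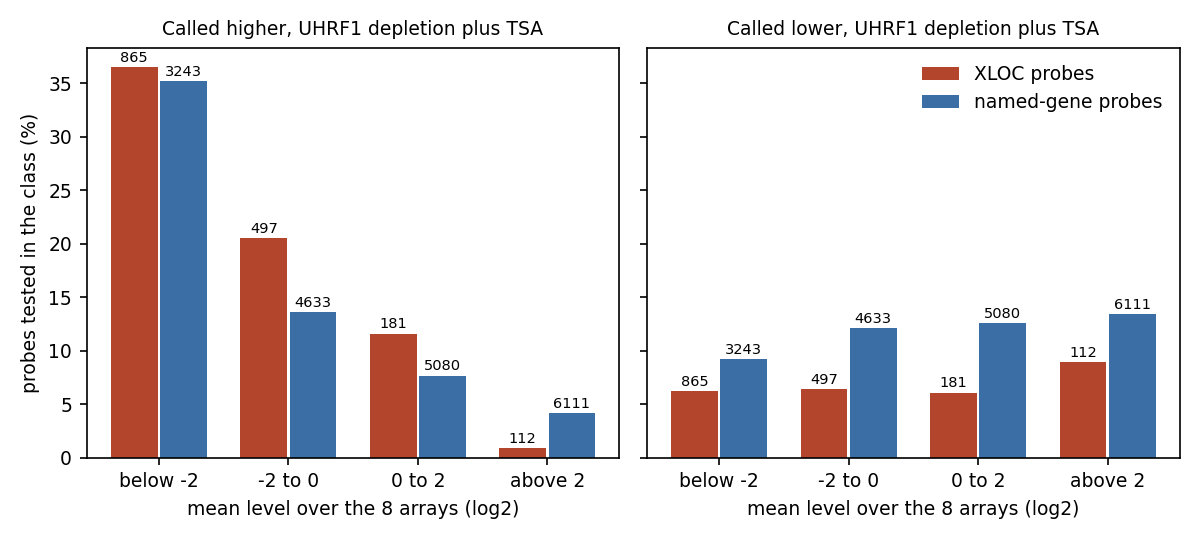
Percent of tested probes called higher (left) or lower (right) in siUHRF1 with TSA against siCONT with mock, by the probe's mean level over the 8 arrays (log2), with the number of probes tested above each bar. Among the dimmest probes the higher share is 36.5% for XLOC and 35.2% for named genes, and the lower share of XLOC probes is under that of named genes in all 4 classes.

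XLOC_l2_010338 on chromosome 3 had the largest rise. Its arrays stood at −5.43 and −5.50 in siCONT with mock, −5.26 and −4.13 in siUHRF1 with mock, −1.02 and −0.69 in siCONT with TSA, and 3.42 and 2.60 in siUHRF1 with TSA. It was above background only in the TSA groups, and the 2 TSA groups did not overlap. The combination raised it at least 84.9-fold over siCONT with mock (adjusted p = 0.000122, and 0.00529 with the siCONT arrays averaged), and TSA alone at least 5.84-fold (adjusted p = 0.000968, and 0.0502 averaged). Within TSA-treated cells UHRF1 depletion added 3.86 ± 0.42 (SE) on the log2 scale (adjusted p = 0.00557, and 0.0789 with the siCONT arrays averaged). The nearest named-gene probe, of the semaphorin receptor PLXNA1, lay 246 kb away and changed by 0.09.

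XLOC_007598 on chromosome 9 behaved alike at a lower level. Its arrays stood at −5.61 and −5.66 in siCONT with mock, −3.86 and −5.46 in siUHRF1 with mock, −0.61 and −0.67 in siCONT with TSA, and 1.78 and 1.12 in siUHRF1 with TSA. None of the mock arrays was above background. The combination raised it at least 28.7-fold (adjusted p = 0.000264). Its nearest named gene, the retinoid receptor RXRA, 43.2 kb away on the same strand, rose by 1.25 (adjusted p = 0.00174).

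XLOC_004834 on chromosome 5 reached the same level with TSA whether or not UHRF1 was depleted. Its arrays stood at −5.35 and −5.41 in siCONT with mock, −4.79 and −5.00 in siUHRF1 with mock, 0.65 and 0.64 in siCONT with TSA, and 1.17 and 0.15 in siUHRF1 with TSA. The siUHRF1 TSA arrays lay on both sides of the siCONT TSA arrays. The rise was at least 16.6-fold with the combination (adjusted p = 0.00013) and at least 16.4-fold with TSA alone (adjusted p = 0.000304), and the UHRF1 effect within TSA was 0.02 ± 0.31 (SE).

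Further loci in this comparison followed one or the other course. XLOC_013985 on chromosome 21 rose at least 14.9-fold with the combination and at least 1.89-fold with TSA alone. XLOC_000778 rose at least 11.2-fold and 2.37-fold, XLOC_003738 at least 12.3-fold and 4.18-fold. XLOC_010724 rose at least 8.03-fold and 7.11-fold, although its siUHRF1 TSA arrays were far apart, at 0.77 and −1.56. The calls with TSA alone were lost with the siCONT arrays averaged for XLOC_013985 (adjusted p = 0.178), XLOC_000778 (adjusted p = 0.0866) and XLOC_010724 (adjusted p = 0.0916). XLOC_012638 rose at least 8.89-fold with the combination and at least 7.23-fold with TSA alone, and was also above background in siUHRF1 with mock, at −3.09 and −3.11.

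XLOC_004924 on chromosome 5 was measured by 7 probes, and all 7 were called higher with the combination. The probe printed above rose at least 15.5-fold from background. The brightest probe stood at −2.42 and −2.50 in siCONT with mock, −4.08 and −5.55 in siUHRF1 with mock, 1.88 and 1.84 in siCONT with TSA, and 2.57 and 2.15 in siUHRF1 with TSA. It rose by 4.82 ± 0.45 (SE) on the log2 scale with the combination. It was lower with UHRF1 depletion alone (at least 2.20-fold, adjusted p = 0.0342, and 0.376 with the siCONT arrays averaged) and higher with TSA. The arrestin-domain gene ARRDC3, 61.1 kb away on the same strand, changed by 0.21 (adjusted p = 0.722).

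**Figure D3:**
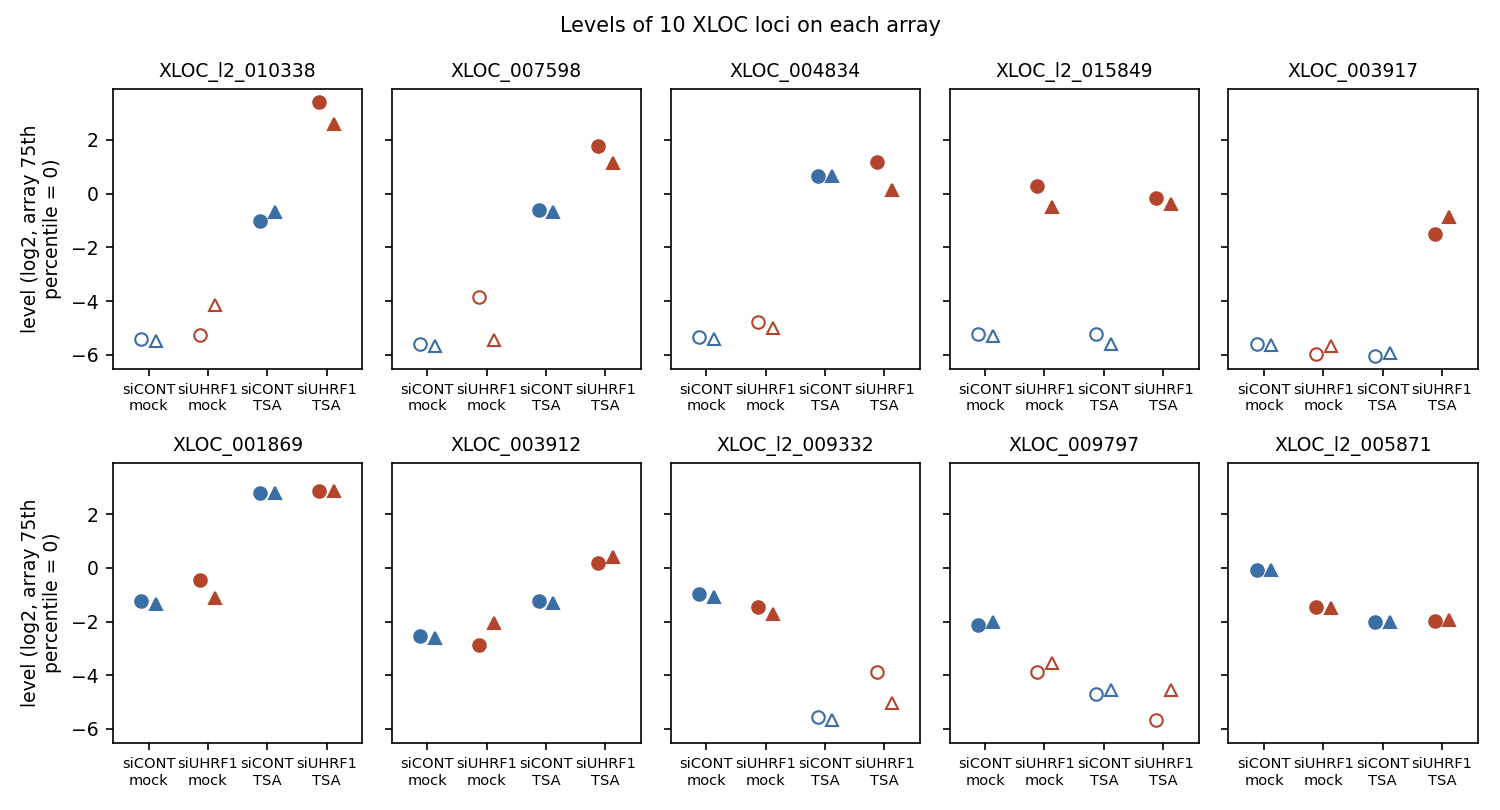
Level (log2, array 75th percentile at 0) of 1 probe of each of 10 XLOC loci on the 8 arrays. Circles are siCONT replicate 1 or siUHRF1-1 and triangles siCONT replicate 2 or siUHRF1-2, blue is siCONT and red siUHRF1, and open symbols mark groups not above background on both arrays. XLOC_l2_015849 is above background in both siUHRF1 groups only, XLOC_003917 in siUHRF1 with TSA only, and XLOC_l2_009332 in both mock groups only.

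Loci that fell with the combination were fewer. Of the 107 lower probes, 61 stayed above background on both siUHRF1 TSA arrays and 32 were above it on neither. XLOC_l2_009332 on chromosome 22 stood at −0.96 and −1.10 in siCONT with mock, −1.45 and −1.71 in siUHRF1 with mock, −5.57 and −5.68 in siCONT with TSA, and −3.87 and −5.02 in siUHRF1 with TSA. The mock and TSA arrays did not overlap. It was at least 5.70-fold lower with the combination (adjusted p = 0.000809) and at least 6.52-fold lower with TSA alone (adjusted p = 0.000626). This rests on 1 probe of the locus, as another changed by −0.78 with the combination, not called, and by −1.24 with TSA alone, called, and another one by −0.05 with TSA alone.

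XLOC_009797 on chromosome 12 was above background in siCONT with mock only. Its arrays stood at −2.13 and −2.02 there, −3.87 and −3.54 in siUHRF1 with mock, −4.68 and −4.56 in siCONT with TSA, and −5.67 and −4.53 in siUHRF1 with TSA. It was at least 2.77-fold lower with the combination (adjusted p = 0.00124) and at least 3.17-fold lower with TSA alone (adjusted p = 0.00346, and 0.109 with the siCONT arrays averaged).

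XLOC_012505 on chromosome 17 lies 12.4 kb from HOXB9, a homeobox transcription factor of the HOXB cluster. Its brightest probe had means of 5.44 in siCONT with mock, 4.51 in siUHRF1 with mock, 3.37 in siCONT with TSA and 4.29 in siUHRF1 with TSA. With the combination 3 of its 4 probes were called lower. The brightest changed by −1.16, another by −2.30, the dimmest was at least 2.58-fold lower, and the fourth changed by −0.42 (adjusted p = 0.0223), short of 2-fold. HOXB9 changed by −0.77. XLOC_009167 on chromosome 11 lay 13.9 kb from a probe of NEAT1, the noncoding RNA of paraspeckles. XLOC_009167 was at least 2.65-fold lower with the combination (adjusted p = 0.00456), and that NEAT1 probe changed by −2.45 (adjusted p = 0.0086), while another NEAT1 probe on the array changed by 1.10.

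The effect of TSA alone was read in siCONT cells, to separate the HDAC inhibitor from UHRF1 depletion. Of 1593 XLOC probes tested, 295 (18.5%), of 250 loci, were called higher and 106 (6.65%), of 92 loci, lower. Over all probes the shares were 10.4% and 8.21%, and over named-gene probes 9.23% and 8.56%. With the siCONT arrays averaged, 42 XLOC probes were called higher and 3 lower. Over all probes 362 were then called, instead of 4317. Among the probes above background on all 8 arrays, 77 XLOC probes (7.50%) were higher and 54 (5.26%) lower, against 6.21% and 8.35% of the named-gene probes. Slide row cannot be told apart from TSA, as all mock arrays sat in one row and all TSA arrays in the other. This comparison and the one of the combination share the siCONT mock arrays.

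UHRF1 depletion alone, compared with siCONT under mock, changed few loci. Of 1406 XLOC probes tested, 50 (3.56%) were called higher and 20 (1.42%) lower, against 3.13% and 0.987% of all probes. This count rested on treating the siCONT arrays as separate samples. With them averaged limma called 0 XLOC probes, and 117 passed an unadjusted p under 0.05 with a 2-fold change. Over the whole array it then called 5 probes, instead of 921. Of the 50 higher XLOC probes, 32 were above background on no siCONT mock array. Among the probes above background on all 8 arrays, 15 of 1027 XLOC probes (1.46%) were higher and 11 (1.07%) lower. The named-gene probes of that kind were higher in 1.83% and lower in 0.89%. The median change over the tested XLOC probes was −0.14, against −0.09 for named genes. It was −0.24 without siUHRF1-2 and −0.03 without siUHRF1-1, and the calls without siUHRF1-2 were 37 higher and 44 lower.

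XLOC_l2_015849 on chromosome X had the largest rise with UHRF1 depletion alone. Its arrays stood at −5.23 and −5.30 in siCONT with mock, 0.30 and −0.49 in siUHRF1 with mock, −5.22 and −5.59 in siCONT with TSA, and −0.17 and −0.39 in siUHRF1 with TSA. All 4 siUHRF1 arrays were above background and all 4 siCONT arrays were not. It was at least 9.88-fold higher with UHRF1 depletion under mock (adjusted p = 0.00236, and 0.0559 with the siCONT arrays averaged) and at least 11-fold higher under TSA (adjusted p = 0.000898, and 0.0313 averaged). The difference between these effects was −0.05 ± 0.39 (SE, adjusted p = 0.946), read with both siCONT groups at background.

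XLOC_011294 was called higher with UHRF1 depletion under mock on all 3 of its probes. The brightest of them stood at −5.29 and −5.39 in siCONT with mock, −2.05 and −1.57 in siUHRF1 with mock, −3.75 and −3.86 in siCONT with TSA, and −2.55 and −2.90 in siUHRF1 with TSA. This probe too was above background on all 4 siUHRF1 arrays and on no siCONT array, and it was highest in siUHRF1 with mock. It was at least 3-fold higher with UHRF1 depletion under mock (adjusted p = 0.00257, and 0.0727 with the siCONT arrays averaged) and at least 1.99-fold higher under TSA (adjusted p = 0.0204, and 0.274 averaged). The rise under TSA rests on this 1 probe, the only one of the 3 tested there. Another probe was above background in siUHRF1 with mock only, and stood at −3.26 and −3.57 in siUHRF1 with TSA. XLOC_001595, 27.1 kb from the decoy receptor gene IL1R2, was above background in siUHRF1 with mock only, at −1.97 and −2.19. It was at least 2.49-fold higher there than in siCONT with mock (adjusted p = 0.00609, and 0.0555 averaged). This rests on 1 probe of the locus, as another changed by 1.76 (adjusted p = 0.079) and was not called.

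Under TSA, UHRF1 depletion was compared with siCONT to ask what it adds to the HDAC inhibitor. Of 1690 XLOC probes tested, 145 (8.58%) were called higher and 31 (1.83%) lower, against 5.39% and 2.87% of all probes. The share of these calls that were higher was 82.4%, but 53.1% after scaling to the array median, which moved the median over all tested probes from 0.00 to −0.35. Over all called probes this share went from 65.2% to 29.1%. With the siCONT arrays averaged, 16 XLOC probes were called higher and 2 lower. Over all probes 165 were then called, instead of 1970. Among the probes above background on all 8 arrays, 37 of 1027 XLOC probes were higher and 12 lower, and named-gene probes were higher in 2.15% and lower in 3.11%.

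XLOC_003917 on chromosome 4 was seen only with both treatments. Its arrays stood at −5.59 and −5.65 in siCONT with mock, −5.97 and −5.67 in siUHRF1 with mock, −6.04 and −5.93 in siCONT with TSA, and −1.52 and −0.88 in siUHRF1 with TSA. It was at least 5.79-fold higher with UHRF1 depletion under TSA (adjusted p = 0.000696, and 0.0313 with the siCONT arrays averaged), and another probe of the locus was called higher too (adjusted p = 0.00523). No named gene had a probe within 250 kb of it, the nearest lying 840 kb away. XLOC_004178, also on chromosome 4, took the same course, at −5.15 or below in the other groups and −1.47 and −0.58 in siUHRF1 with TSA (at least 6.55-fold, adjusted p = 0.00116). XLOC_007956 on chromosome X went the other way. It was above background in siCONT with TSA only, at −2.62 and −2.52, and was at least 1.96-fold lower with UHRF1 depletion under TSA (adjusted p = 0.00347, and 0.0341 averaged).

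The difference between the UHRF1 effect under TSA and under mock was tested as the interaction. Of 1816 XLOC probes tested, 73 (4.02%) had a higher UHRF1 effect under TSA and 33 (1.82%) a lower one, against 2.83% and 2.07% of all probes. With the siCONT arrays averaged limma called 0, and 232 XLOC probes passed an unadjusted p under 0.05 with a 2-fold difference. Over the whole array it then called 0 as well, instead of 1203. The median interaction was 0.29 for XLOC probes and 0.01 for named genes. After scaling to the array median the XLOC median turned to −0.05, and 38.4% of the XLOC calls were higher instead of 68.9%. Over all called probes this share went from 57.8% to 24.2%. The XLOC median was 0.16 without the siUHRF1-1 mock array and 0.41 without the siUHRF1-2 mock array, 2 arrays that differed by a median of 0.20 over XLOC probes and 0.00 over named genes.

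By chromosome, 25 to 153 XLOC probes and 222 to 2037 named-gene probes were tested on the autosomes and chromosome X, so that the XLOC shares are the less precise, and the spread between chromosomes was not tested. The share of XLOC probes called higher with the combination was highest on chromosome 21, with 19 of 41 tested probes (46.3%), of 13 of 31 loci, and none lower. Chromosome 4 followed with 35 of 82 (42.7%, 26 of 67 loci), then chromosome 19 with 37.8%, chromosome 12 with 37.0% and chromosome 5 with 34.9%. It was lowest on chromosome 17, where 6 of 60 probes (10.0%) were higher and 10 (16.7%) lower, and on chromosome 10 (16.5%). By locus, 6 of the 49 tested on chromosome 17 were higher and 7 lower. Named genes ranged from 9.67% to 15.9% higher on the autosomes and chromosome X. On chromosome 17 named genes were also more often lower (15.5%) than on any other of these chromosomes. With TSA alone chromosome 21 again had the highest XLOC share (12 of 35 probes, 34.3%), while on chromosome 17 there were 3 higher and 11 lower of 61. The 11 lower probes were of 7 of 51 loci, and 5 of them lay in 1 run of neighbouring loci described below.

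**Figure D4:**
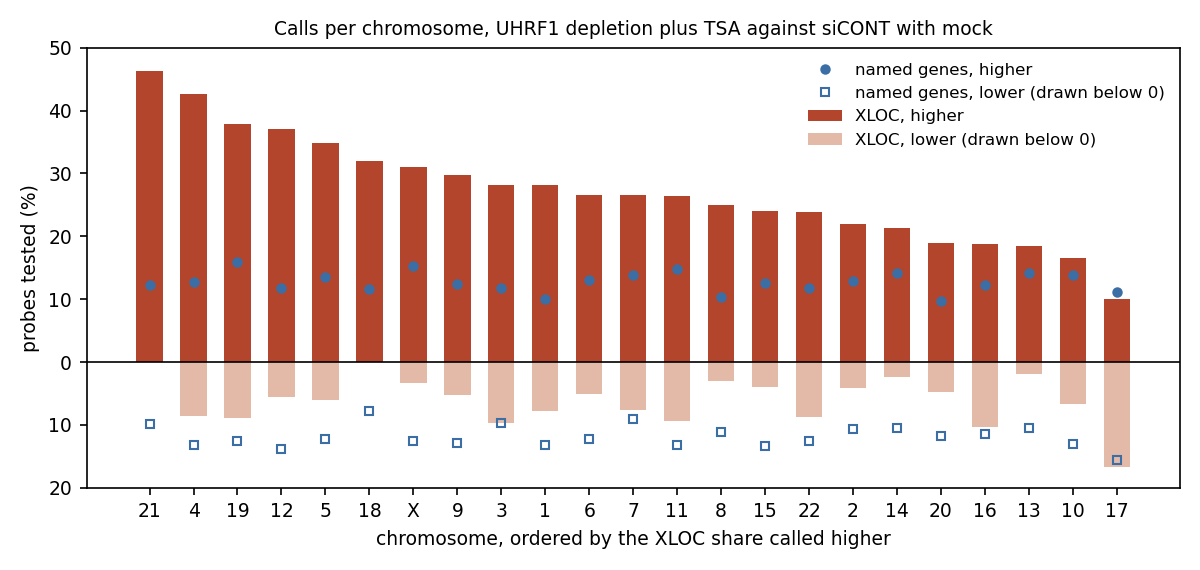
Percent of tested XLOC probes called higher (dark bars) and lower (light bars, drawn below 0) in siUHRF1 with TSA against siCONT with mock on each autosome and chromosome X, with the same shares for named-gene probes as circles and squares. The XLOC share called higher runs from 46.3% on chromosome 21 to 10.0% on chromosome 17, and the named-gene share from 9.67% to 15.9%.

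The 19 higher probes of chromosome 21 were spread along it and not in one cluster, with no more than 3 from any locus. Picked after their values were seen, they included 1 probe each of XLOC_013985 and XLOC_013931, 2 of XLOC_014103, 3 of XLOC_013900 and 3 of XLOC_014105. On chromosome 5, 7 of the 29 higher probes belonged to the single locus XLOC_004924. Detection on the array ranged from 11.3% of the XLOC probes of chromosomes 4 and 5 to 26.8% of those of chromosome X and 29.6% of those of chromosome Y.

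Runs of neighbouring loci were taken as at least 3 XLOC loci called the same way with at most 100 kb between probes. How many stretches held enough tested loci to form a run was not counted. The combination gave 2 such runs, both higher. One, at chr2:220602243-220658883, held XLOC_001868, XLOC_001869 and XLOC_001870. XLOC_001869 stood at −1.22 and −1.33 in siCONT with mock, −0.45 and −1.12 in siUHRF1 with mock, 2.80 and 2.79 in siCONT with TSA, and 2.85 and 2.86 in siUHRF1 with TSA. The mock and TSA arrays of all 3 loci did not overlap. The combination raised them by 2.93 to 4.13 on the log2 scale and TSA alone by 3.30 to 4.07, and the UHRF1 effect within TSA lay between −0.37 and 0.24. Their nearest named gene, the anion exchanger SLC4A3, 95.8 kb from XLOC_001868, changed by 1.32 with the combination (adjusted p = 0.00641) and by 0.29 with TSA alone (adjusted p = 0.376).

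The other run, at chr4:26765978-26861496, held XLOC_003480, XLOC_003481, XLOC_003482, XLOC_003483 and XLOC_003912, with 6 probes, all called higher. The 4 probes at background in siCONT with mock rose at least 2.9-fold to 7.85-fold. The brightest probe, of XLOC_003912, stood at −2.55 and −2.62 in siCONT with mock, −2.88 and −2.04 in siUHRF1 with mock, −1.25 and −1.30 in siCONT with TSA, and 0.18 and 0.39 in siUHRF1 with TSA. Its siUHRF1 TSA arrays lay above all others, and the combination raised it by 2.87 ± 0.27 (SE). STIM2, the calcium sensor of the endoplasmic reticulum, lay within 1.08 kb of it on the opposite strand and rose by 2.55 (adjusted p = 0.000264). XLOC_003483, on the strand of STIM2 and 0.156 kb from its probe, rose at least 3.84-fold. The nearest named gene of XLOC_003480, XLOC_003481 and XLOC_003482 was TBC1D19, on the same strand and 9.34 kb from XLOC_003480, which changed by 0.68 (adjusted p = 0.0705) and was not called. For XLOC_003483, so close to STIM2 on the same strand, a separate transcript and an unannotated part of STIM2 cannot be told apart.

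With TSA alone the chromosome 2 run was called as well, and a run of lower loci stood at chr17:66111561-66182891, with XLOC_l2_005871, XLOC_l2_006173 and XLOC_012288. The probe of XLOC_l2_005871 that fell most stood at −0.09 and −0.09 in siCONT with mock, −1.46 and −1.51 in siUHRF1 with mock, −2.02 and −2.02 in siCONT with TSA, and −1.98 and −1.96 in siUHRF1 with TSA. It fell by 1.93 on the log2 scale with TSA (adjusted p = 0.000304, and 0.0551 with the siCONT arrays averaged) and by 1.39 with UHRF1 depletion (adjusted p = 0.00478, and 0.216 averaged). XLOC_012288 was above background on both arrays only in siCONT with mock, at −3.16 and −3.36, and was at least 1.39-fold lower with TSA. With the siCONT arrays averaged, XLOC_001870 (adjusted p = 0.0927) and XLOC_l2_006173 (adjusted p = 0.151) lost their calls with TSA alone. So did all probes of XLOC_l2_005871, and neither run then held at least 3 called loci with TSA alone.

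The loci were then set beside the nearest named gene, to see whether they change with it. The nearest named-gene probe lay a median of 37.4 kb from the XLOC probes tested with the combination, and 68.5 kb from all XLOC probes with a position. In 623 cases it lay within 50 kb and was tested too. Of the 168 higher XLOC probes among these, 34 (20.2%) had a neighbour that was also higher, while 43 of the 395 XLOC probes not called (10.9%) had such a neighbour. Of the 60 lower ones, 12 had a neighbour also lower, against 44 of 395 (11.1%). In 15 cases locus and neighbour were called in opposite directions. Most called XLOC probes, 167 of 228, thus had a neighbour that was not called.

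Strand and distance went with the likeness of the changes. Across the 623 pairs Pearson's r of the log2 changes was 0.21, and it was 0.32 for the 307 neighbours on the same strand and 0.13 for the 316 on the opposite strand. Within 10 kb r was 0.39 over 254 pairs and 27.1% of the called XLOC probes had a neighbour called the same way. Some pairs share a gene, as the 623 neighbours were 500 genes, and some share a locus. Some hold the same sequence, as a probe of XLOC_000044 shares 50 bases with one of its neighbour ENO1-AS1. HOTTIP was paired with a probe of HOTTIP itself. The weight of such pairs in these values was not tested. All values come from the same arrays, so these correlations are a description only. Calls were also made far from genes. Between 50 and 250 kb from a named gene 29.8% of 583 XLOC probes were higher, and beyond 250 kb 17.1% of 140, against 19.7% of 76 within 1 kb.

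**Figure D5:**
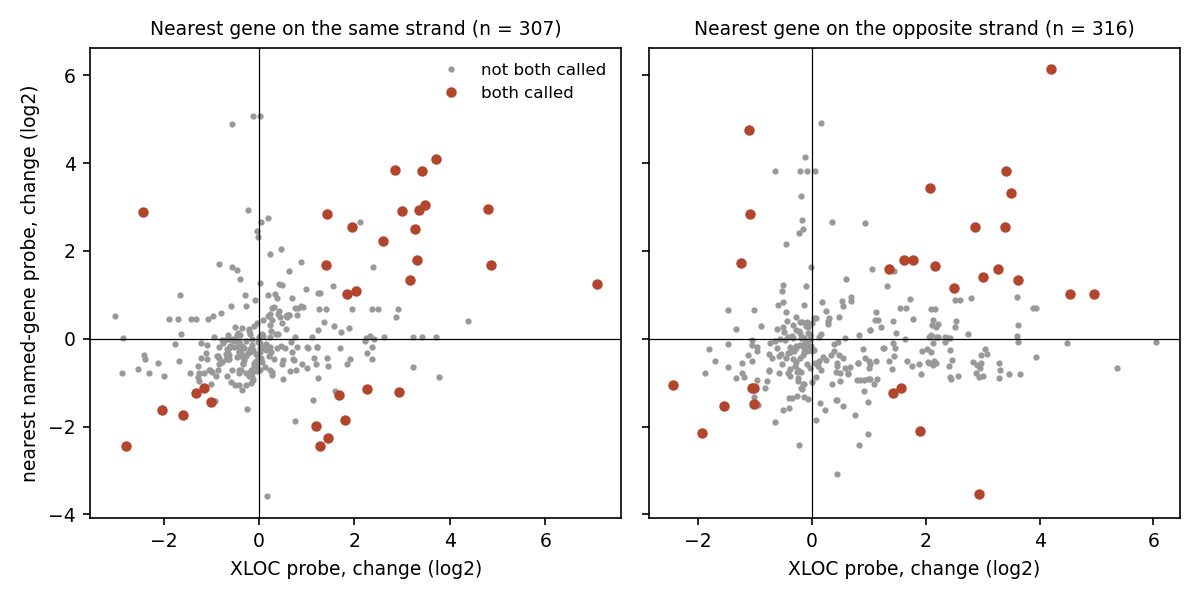
Change (log2, siUHRF1 with TSA against siCONT with mock) of XLOC probes and of the nearest named-gene probe within 50 kb, for 307 neighbours on the same strand (left) and 316 on the opposite strand (right). Red points mark pairs in which both were called, 46 in the same direction and 15 in opposite directions.

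Where a locus had several probes, they often differed in whether they were called. With the combination 185 loci had at least 2 tested probes and 90 of them had a call. All probes agreed in the call at 40 loci, some but not all were called at 49, and at 1 locus, XLOC_l2_013873, the calls went both ways (−1.23 and 1.02 on the log2 scale). The median range of changes within a locus was 0.62.

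HOTAIR, HOTTIP and GNASAS, long noncoding RNAs of the HOXC, HOXA and GNAS loci, were not called where tested. HOTAIR and HOTTIP were tested in all 5 comparisons, and GNASAS only for UHRF1 depletion under mock and the interaction. HOTAIR stood between −2.44 and −1.54 on all 8 arrays and HOTTIP between 0.17 and 1.5. Of 25 known long noncoding RNA genes listed beside them, 20 were on the array and 19 were detected. Read from 1 probe a gene, 4 of these 19 were called higher with the combination and 1 lower, against 14.5% and 11.1% of all probes. NEAT1 counts among the higher by the probe at 1.10, although its other probe named above changed by −2.45.

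The base content of the XLOC probes was read from their sequences. The median GC content was 41.7% for those called higher with the combination and over all XLOC probes, 43.3% for those called lower, and 45.0% for those tested and not called. AATAAA stood in 10.7% of the 440 higher and 9.35% of the 107 lower XLOC probes, against 7.31% of the 1108 tested and not called. Among named-gene probes it stood in 11.1% of those called higher and 7.85% of those called lower.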

How the data were processed

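RNA of DLD1 cells was hybridised to 8 one-colour Agilent SurePrint G3 Human GE v2 arrays, on 1 slide and in 1 scan. The deposited files give linear spot intensity, written with Agilent Feature Extraction 10.7.3.1 per the file headers. The authors' extraction subtracted background and did not scale between arrays. The series matrix that the authors deposited holds the same intensity rounded. Spots of a probe were averaged without outlier spots, and no spot was saturated. An array had 43.3% to 48.0% of its probes above background. The number of arrays limits the precision.

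Levels were log2 values minus each array's 75th percentile. The test was limma 3.58.1 under R 4.3.3 (eBayes after lmFit, two-sided), with 4 group means over 8 arrays, adjusted by Benjamini-Hochberg over all tested probes. A probe was tested if well above background on both arrays of a compared group, and called at an adjusted p under 0.05 and at least 2-fold. Averaging the siCONT arrays left 6 samples. "At least N-fold" sets the brighter group's mean against a dim group's mean of, per array, the higher of the lowest signal above background and the probe's own. The fit was tested on simulated data.

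Neither the labels nor the methods state separate cultures, so p-values measure the spread between these samples, which may be technical. Members, lists and tests were chosen with earlier results of these data known. Named loci are those of largest change among called probes whose groups do not overlap (10 each way for the combination, 6 each way otherwise, 5 each way for the interaction), the 10 brightest, the brightest of each group alone, and members of runs. Loci on chromosome Y were counted and not described, apart from XLOC_008276, which is named for its interaction. Named genes are probes whose name is not a locus, clone, transcript or probe identifier. Some of these names are protein identifiers, such as P39194, and not gene symbols, and they count among the neighbours. Neighbours were searched within 50 kb. The alternatives were other scalings, normexp with an offset of 50, other filters, the averaged siCONT arrays, a replicate block, the methods' t-test, the series matrix, leaving out each array, other detection flags and other distances.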

Additional observations from a re-analysis of the deposited data

Results flagged for a closer look

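A difference between the UHRF1 effect under TSA and that under mock was called at 106 XLOC probes by the interaction test of the fit across all probes. Those named with a higher effect under TSA were XLOC_013686 (5.35 on the log2 scale), XLOC_003917 (4.98), XLOC_004178 (4.56), XLOC_012288 (4.01) and XLOC_007914 (3.98). Those named with a lower effect were XLOC_l2_012847 (−4.04), XLOC_008276 (−3.58), XLOC_002871 (−2.74), XLOC_l2_002886 (−2.61) and XLOC_004230 (−2.56). Each was at background in at least 1 of the 4 groups that enter the difference, so these values are fitted differences, neither bounds nor measured on every side, and their order carries no meaning. XLOC_012288 was above background on 1 of the 2 siUHRF1 TSA arrays and on neither array of siUHRF1 with mock or siCONT with TSA. Each value is that of 1 probe of the locus. Another probe of XLOC_013686 was at 0.55 (adjusted p = 0.31), not called. Others of XLOC_008276 were at −1.03 and −0.01, not called, while another of XLOC_003917 was at 2.37 and called. None of the 10 was called with the siCONT arrays of each treatment averaged to 1 sample, 3 of 10 were with normexp, 4 of 10 without a filter on dim probes, and 3 of 10 without siCONT TSA replicate 2.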

How the results depend on the processing

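Counts of XLOC probes called are given for UHRF1 depletion under mock (70), TSA (401), the combination (547), UHRF1 depletion under TSA (176) and the interaction (106), in that order. Over all probes the counts were 921, 4317, 6077, 1970 and 1203. With normexp the XLOC counts were 7, 74, 130, 31 and 41, and those over all probes 301, 1708, 2639, 744 and 775. Restricted to the probes above background on every array the XLOC counts were 31, 135, 185, 49 and 59. With the siCONT arrays averaged they were 0, 45, 377, 18 and 0, and those over all probes 5, 362, 3662, 165 and 0. The methods' t-test with adjusted p called 0, 296, 192 and 0 XLOC probes in the first 4 comparisons, where unadjusted it called 54, 354, 435 and 159. Over all probes it called 0, 3811, 2714 and 0 with adjusted p. Without a filter the interaction gave 34 XLOC probes. Leaving out 1 array gave XLOC counts of 13 to 134, 248 to 420, 467 to 561, 38 to 199 and 7 to 250. For UHRF1 depletion under mock the arrays that moved the count most were siCONT mock replicates 1 and 2 (13 each), either siCONT TSA array (26) and siUHRF1-1 (134). For TSA it was siCONT TSA replicate 1 (267) or 2 (248), and for UHRF1 depletion under TSA the same 2 arrays (44 and 38) and siUHRF1-1 TSA (113). For the interaction it was siCONT mock replicate 1 (7) or 2 (14), siCONT TSA replicate 1 (12) or 2 (9), and siUHRF1-1 mock (166) or siUHRF1-2 mock (250). The cause of these shifts was not tested. The replicate block gave 69, 401, 550, 164 and 72. The numbers do not pair the siCONT with the siUHRF1 arrays (correlations of deviations −0.06 to 0.04), while the siUHRF1 arrays of the same siRNA correlated at 0.34. Quantile normalization (57, 395, 557, 156 and 94), median scaling (70, 417, 612, 175 and 125), scaling to detected probes (68, 395, 563, 180 and 105) and the series matrix (70, 401, 547, 176 and 105) kept each count within 1.5 times. Detected loci numbered 2599, 2640, 2910 and 2919 by the less strict flag. Neighbours called the same way made up 27.1% within 10 kb and 20.6% within 250 kb, against 20.2% within 50 kb. A gap of 500 kb gave 7 runs with the combination. With the siCONT arrays averaged, named calls that kept their side of the threshold were 17 of 20 for the combination, 4 of 12 for TSA, 6 of 12 for UHRF1 depletion under TSA, 0 of 12 under mock and 0 of 10 for the interaction. None of the named loci changed direction under any alternative.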
